A study of Mus musculus with 2 samples.

Results

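The genes of the mouse major histocompatibility complex (MHC), whose names start with *H2-*, were measured in kidney RNA of *Cnnm2* fl/fl;*Six2-Cre* mice (knockout) and of *Cnnm2* +/+;*Six2-Cre* mice (control), all 2 months old. Members were chosen by gene name alone, from every gene probe on the arrays, and amounted to 42 gene names with 51 probes among 31821 names with 39416 probes. Both genotypes carried the *Six2-Cre* transgene, which drives Cre recombinase in nephron progenitors, so that the deletion covers cells descended from these progenitors and not the blood-derived or endothelial cells of the kidney. Each of 2 arrays of 2 colours carried RNA of both genotypes, with the knockout in Cy5 on array 1 and in Cy3 on array 2. The study names C57BL6/J as the pure background of its mice, in a passage that does not single out those used for the arrays. The number of mice and any pooling are not given in the sources used here. Whether both arrays carried the same RNA is not given either, and the arrays were counted as 1 sample of each genotype. No test between genotypes is therefore given as a result, and each ± SD below is that of the 2 arrays.

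MHC class I molecules sit on nearly all cells and show peptides from inside the cell to CD8+ T cells. Their heavy chains come from the classical genes *H2-K1* and *H2-D1*, and nonclassical heavy chains come from genes of the Q, T and M regions. Class II molecules, made of the chains encoded by *H2-Aa*, *H2-Ab1* and *H2-Eb1*, show peptides taken up from outside and are found mainly on dendritic cells, macrophages and B cells. The exchange of peptides on class II is run by H2-DM and held back by H2-O. In the kidney, class II is carried mostly by resident macrophages and dendritic cells, and interferon-gamma raises both classes.

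The log2 ratio of knockout over control is that of the processed signal intensities, and a positive value means a higher signal in the knockout. A probe was compared where the scanner software called it well above background on both arrays for at least 1 of the genotypes, which held for 24593 probes in all and for 29 *H2* probes of 25 names. All 29 were well above background in all 4 channels. The targeted gene was checked first. The *Cnnm2* probe gave -2.88 and -2.46 in log2 on arrays 1 and 2 (mean -2.67 ± 0.30). All 9 probes of the 8 kidney genes checked, among them *Slc34a1*, *Lrp2*, *Umod*, *Slc12a1*, *Slc12a3* and *Aqp2*, were well above background in every channel. None of the *H2* spots was saturated or marked as an outlier.

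No *H2* probe differed by 2-fold between the genotypes. By the rule of size used here, a mean log2 ratio of at least 1 with one direction on both arrays, 0 of 29 *H2* probes were counted, beside 0.573% of all probes compared. At a limit of 0.5, 0 of 29 were higher and 0 of 29 were lower, beside 1.32% and 1.28% of all probes. The mean log2 ratios of the *H2* probes lay between -0.20 and 0.23, with a median of -0.00. All 29 lay within 0.25 of 0, a range chosen after the values were seen, as did 84.6% of all probes compared and 86.7% of those well above background in both genotypes. At shares this high, the count of 29 is a description and does not set the *H2* genes apart.

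**Figure D1:**
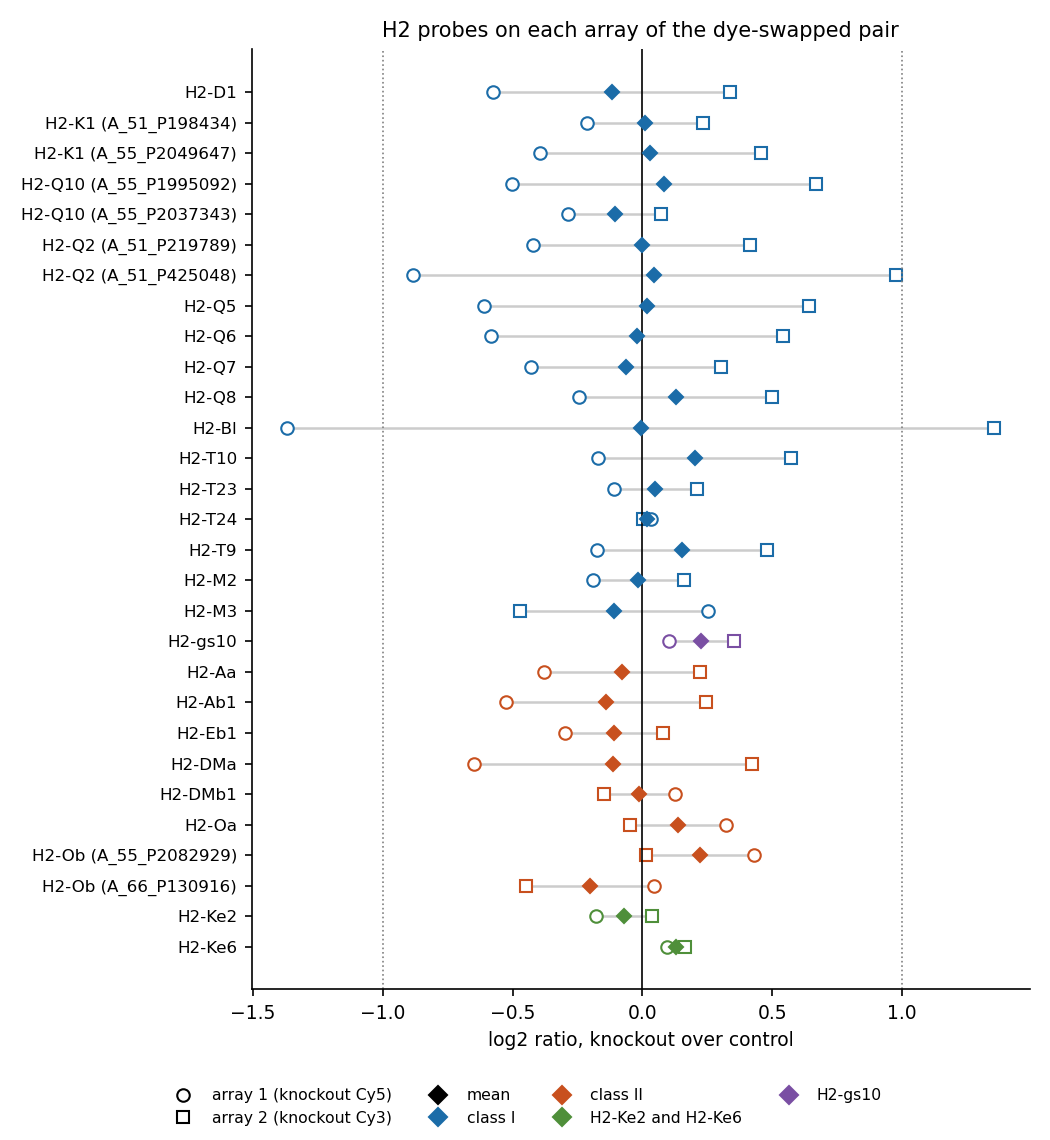
Log2 ratio of knockout over control (horizontal axis) for each of the 29 H2 probes compared (1 row each), on array 1 (circles), on array 2 (squares) and as the mean of both (filled diamonds). Colours give the class, and dotted lines mark a 2-fold difference. The means lie between -0.20 and 0.23, while most array 1 values lie left of 0 and most array 2 values right of it.

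The classical class I genes had mean log2 ratios between -0.12 and 0.03. *H2-K1* was measured by 2 probes. The first (A_51_P198434, chr17:34133055-34133114 on the minus strand of mm9) had processed signals of 15794 in the knockout and 18314 in the control on array 1, and of 16987 and 14463 on array 2. The knockout was thus lower on the first array and higher on the other. In log2, the arrays gave -0.21 and 0.23 (mean 0.01 ± 0.32). This probe was printed 10 times on each array, and its spots had an SD of only 0.022 on array 1 and 0.025 on array 2. The gap between the arrays was therefore far larger than the spread of spots within an array. The second *H2-K1* probe (A_55_P2049647, chr17:34133984-34134043, minus strand) gave -0.40 and 0.45 (mean 0.03 ± 0.60). *H2-D1*, the other classical heavy chain (A_65_P19395, chr17:35403886-35403945), had signals of 9499 and 14156 in knockout and control on array 1. On array 2, they were 12535 and 9920. Its mean log2 ratio was -0.12 ± 0.65, again with opposite directions.

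Class I genes are similar in sequence, and some of their probes share long runs of bases. The pair with the longest common stretch among probes compared were the second *H2-K1* probe and that of *H2-T23* (A_51_P237754, chr17:36167338-36167574, minus strand), which encodes the nonclassical molecule Qa-1. The next were a probe of *H2-Q2* (A_51_P425048, chr17:35460007-35460066) and one of *H2-Q10* (A_55_P1995092, chr17:35610036-35610095). They are shown for this likeness, 5′ to 3′, with the bases shared within each pair in capitals.
H2-K1 A_55_P2049647: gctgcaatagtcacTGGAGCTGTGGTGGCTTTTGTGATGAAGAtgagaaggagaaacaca
H2-T23 A_51_P237754: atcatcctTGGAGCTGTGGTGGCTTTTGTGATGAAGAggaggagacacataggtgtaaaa
H2-Q2 A_51_P425048: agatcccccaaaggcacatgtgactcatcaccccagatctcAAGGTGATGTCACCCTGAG
H2-Q10 A_55_P1995092: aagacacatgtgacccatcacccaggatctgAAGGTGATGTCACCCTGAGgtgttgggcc
The first pair shared an unbroken run of 29 bases out of 60 and the second a run of 19. Of the 1275 pairs among the 51 probes, 12 shared a run of at least 12 bases, 8 of them with both probes compared, and 0 were identical. How much signal the probes share by cross-hybridization was not tested.

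The Q region genes, which include the Qa-2 gene *H2-Q7* and *H2-Q10*, known for a secreted product of the liver, had mean log2 ratios from -0.11 to 0.13. Their median over the 8 probes compared, of 6 genes, was 0.01. All 8 had a lower knockout signal on array 1 and a higher one on array 2, as did 8699 of all 24593 probes compared. *H2-Q7* (A_55_P1978511) had signals of 7805 and 10500.3 in knockout and control on array 1, against 9363 and 7589 on array 2. Its mean log2 ratio was -0.06 ± 0.52. The *H2-Q2* probe shown above had the widest gap between the arrays in this region, with log2 ratios of -0.88 and 0.97 and a mean of 0.05 ± 1.31. *H2-Q8* had the highest mean, at 0.13 ± 0.52 from -0.24 and 0.50. The means of *H2-Q5* and *H2-Q6* were 0.02 and -0.02. The *H2-Q10* probes had means of 0.08 (A_55_P1995092) and -0.11 (A_55_P2037343), and the other *H2-Q2* probe (A_51_P219789) had a mean of -0.0037.

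In the T region, 5 of 11 probes were compared, with a median of 0.05 and means from -0.01 to 0.20. *H2-T10* (A_66_P112006) had the highest mean of the probes placed in class I. It is known for a nonclassical molecule seen by gamma delta T cells but listed by RefSeq as a transcribed pseudogene. Its signals were 794 in the knockout and 893 in the control on array 1, and 1189 and 799.6 on array 2. The excess in the knockout stood on array 2 alone, with log2 ratios of -0.17 and 0.57 and a mean of 0.20 ± 0.52. *H2-T9*, also of the T region, had a like pattern, at -0.18 and 0.48, and the probes of *H2-T9* and *H2-T10* shared a run of 12 bases. *H2-T23* had a mean of 0.05 ± 0.23. *H2-T24* had log2 ratios of 0.03 and 0.00, the smallest gap between the arrays among the *H2* probes compared.

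*H2-Bl*, also a transcribed pseudogene in RefSeq, had the widest gap between the arrays of any *H2* probe compared. The signals of its probe (A_55_P1981494, chr17:36220197-36220256, minus strand) were 243 in the knockout and 627 in the control on array 1. On array 2, they were 693 and 271. Each array alone would have placed the gene past 2-fold, in opposite directions, at log2 ratios of -1.37 and 1.36, and the mean was -0.01 ± 1.93. The probe is shown since it carries the largest gap between the arrays, with no base capitalised.
H2-Bl A_55_P1981494: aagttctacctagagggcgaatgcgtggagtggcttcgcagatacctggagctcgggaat

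Of the 14 probes of the M region, 2 were compared. *H2-M3*, which presents N-formylated peptides, had log2 ratios of 0.25 and -0.47 and a mean of -0.11 ± 0.51, and was the single class I probe compared that was higher in the knockout on array 1 and lower on array 2. *H2-M2* had a mean of -0.02 ± 0.25. The gene named *H2-gs10* by the files was not placed in a class, since its name gives none; RefSeq lists the accession of its probe under *H2-Q4*. It had the highest mean of all *H2* probes compared (A_55_P1956302, chr17:35521294-35521353). Its signals were 15464 in the knockout and 14413 in the control on array 1, and 17475 and 13690 on array 2. The knockout was higher on both arrays, by 0.10 and 0.35 in log2, with a mean of 0.23 ± 0.18. In this it was unlike the 8 Q region probes compared, which were all lower in the knockout on array 1.

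Among the class II genes, 8 probes of 7 names were compared, of 11 probes and 10 names. The 3 classical chains compared had mean log2 ratios from -0.14 to -0.08. *H2-Ab1*, the beta chain of the I-A molecule (A_55_P1962747, chr17:34406296-34406355), had signals of 14443 and 20815 in knockout and control on array 1. On array 2, they were 16178 and 13665. The arrays gave -0.53 and 0.24 in log2 (mean -0.14 ± 0.55). *H2-Aa*, its alpha chain (A_52_P343306), had log2 ratios of -0.38 and 0.22 and a mean of -0.08 ± 0.43. *H2-Eb1*, the beta chain of the I-E molecule (A_55_P2156731), had ratios of -0.30 and 0.08 and a mean of -0.11 ± 0.27. Each of these means was smaller than the SD of its arrays. In whole kidney RNA, fewer cells that carry class II and less RNA per such cell cannot be told apart.

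The genes of peptide exchange gave mixed directions. *H2-DMa*, the alpha chain of H2-DM, had log2 ratios of -0.65 and 0.42 and a mean of -0.11 ± 0.75, and *H2-DMb1*, a beta chain, had 0.12 and -0.15 and a mean of -0.01 ± 0.19. *H2-Oa*, the alpha chain of H2-O, had 0.32 and -0.05, with a mean of 0.14 ± 0.26. *H2-Ob*, the beta chain of H2-O, was measured by 2 probes that went apart. Signals of the probe A_55_P2082929 (chr17:34382790-34382849) were 61.9 in the knockout and 45.9 in the control on array 1, and 46.3 and 45.9 on array 2. The knockout was higher on array 1 and level with the control on array 2, with a mean log2 ratio of 0.22 ± 0.29. Signals of the other probe, A_66_P130916 (chr17:34380481-34380849), were 55.3 and 53.6 on array 1, and 40.9 and 55.9 on array 2. Here the knockout was level on array 1 and lower on array 2, with a mean of -0.20 ± 0.35. The lowest mean and the second highest mean of the *H2* probes compared were thus those of 1 gene.

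Class I and class II differed by less than the spread of the arrays. The median log2 ratio was 0.01 over the 18 class I probes and -0.09 over the 8 class II probes, beside -0.00 over all probes compared. Single probes ranged from -0.12 to 0.20 in class I and from -0.20 to 0.22 in class II. With the classes as set here, the range of class I lay within that of class II. With *H2-gs10*, at 0.227, counted as class I, the top of class I would pass that of class II, at 0.222. The difference of the medians, class II minus class I, was -0.11 in the mean. It was 0.22 on array 1 and -0.39 on array 2, with an SD of 0.43, and so had no direction that both arrays share.

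Both genes of the *H2* name that encode no histocompatibility antigen were compared as well. *H2-Ke2*, which RefSeq lists as *Pfdn6*, a prefoldin subunit, had log2 ratios of -0.18 and 0.04 and a mean of -0.07 ± 0.15. *H2-Ke6*, which encodes a hydroxysteroid dehydrogenase, had signals of 16324 in the knockout and 15300 in the control on array 1, and 13318 and 11882 on array 2. The knockout was higher on both, and the mean was 0.13 ± 0.050.

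Few *H2* probes had one direction on both arrays. These were 4 of 29, beside 27.0% of all probes compared: *H2-gs10*, *H2-Ke6*, *H2-T24* and 1 of the *H2-Ob* probes. All 4 were higher in the knockout, as were 3006 of the 6652 probes with one direction among all those compared. For 2 of the 4 the direction rests on values near 0, at 0.033 and 0.0040 for *H2-T24* and 0.015 on array 2 for *H2-Ob*. Of the other 25, 21 were lower in the knockout on array 1 and higher on array 2, and 4 went the other way. Over all 24593 probes compared, these patterns held for 8699 and 9242. Over the 29 probes, Pearson's r between the ratios of the arrays was -0.82, beside -0.55 over all 24593 probes; these points share their arrays and dyes, and genes are not independent replicates. The difference of the arrays divided by 2 is the log2 signal of Cy5 over Cy3 with the genotypes cancelled, and is called here the contrast between the dyes. If the arrays carried different RNA, differences between those RNAs are part of this contrast. They cannot be told apart from dye here. This contrast had a median of -0.30 over the *H2* probes, -0.37 over class I and -0.03 over class II, beside 0.01 over all probes. Its SD over the *H2* probes was 0.36, against 0.11 for the mean ratio. Over all probes compared, these SDs were 0.42 and 0.23. The 5 lowest contrasts of the *H2* probes, from -1.36 to -0.56, were those of *H2-Bl*, *H2-Q2* (A_51_P425048), *H2-Q5*, *H2-Q10* (A_55_P1995092) and *H2-Q6*.

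**Figure D2:**
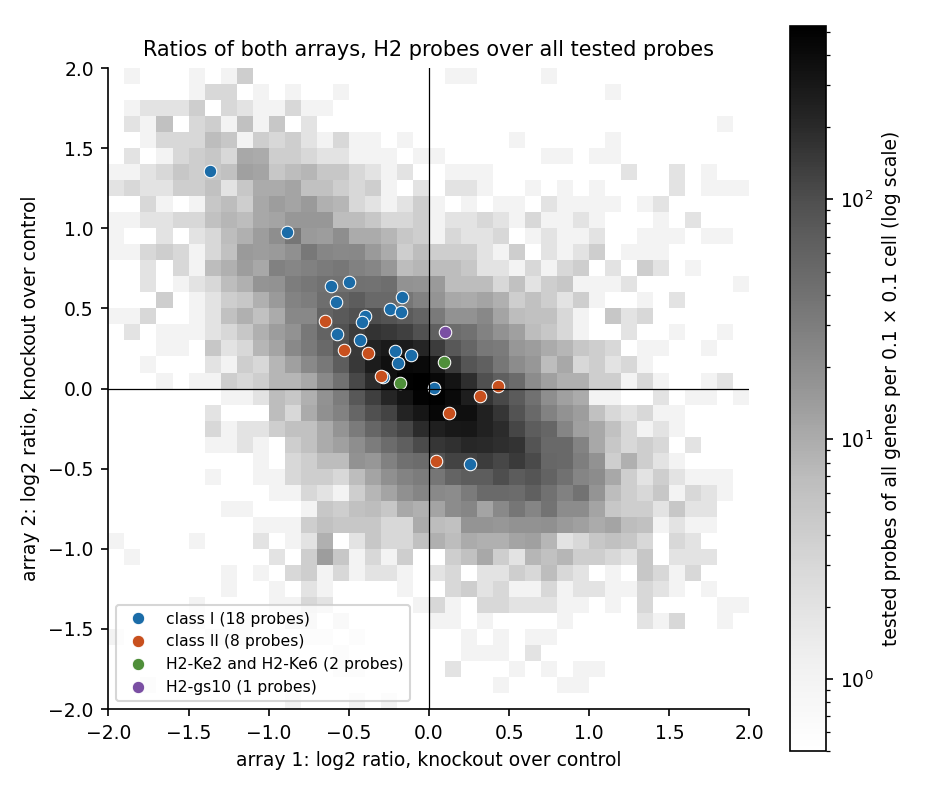
Log2 ratio of knockout over control on array 1 (horizontal) against array 2 (vertical). Grey cells count all tested probes on a log scale within the plotted range, and coloured points are the 29 H2 probes by class. Of these, 21 lie to the upper left, where the knockout is lower on array 1 and higher on array 2, and 4 have one direction on both arrays.

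The gap between the arrays was seen in class I with each of the other corrections of the signals, and less clearly over all *H2* probes. The contrast of *H2-Bl*, -1.36 as reported, was -0.96 with normexp background correction and loess normalization, and -1.25 with loess alone. The median contrast of class I was -0.32 and -0.38 in these settings, and -0.23 with background-subtracted signals centred on the median. All 8 Q region probes kept a lower knockout signal on array 1 and a higher one on array 2 in each of them. Over all *H2* probes, the median contrast moved from -0.30 to -0.14 with background-subtracted signals, and that of class II turned from -0.03 to 0.14.

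Several probes for 1 gene allow a look at how far a value depends on the probe. Of the *H2* names, 9 have 2 probes, and 4 of these had both compared. The means of the *H2-K1* probes were 0.02 apart, those of *H2-Q2* 0.05, those of *H2-Q10* 0.19 and those of *H2-Ob* 0.42. Only *H2-K1* had both means on the same side of 0, so 1 of 4 gene names shared a sign, beside 60.4% of 4101 gene names with several probes compared and 64.3% of the 3453 names with exactly 2. The median range of means was 0.12 for these 4 genes and 0.102 over the names with 2 probes compared. On a single array, the *H2-Q10* probes differed by up to 0.59 and the *H2-Q2* probes by up to 0.56. MHC genes are highly polymorphic, and a probe designed on one strain can bind the transcript of another less well. The study names a pure C57BL6/J background, and neither the MHC alleles of these mice nor allele-specific binding was tested here.

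A total of 22 *H2* probes were not compared. They include 12 of the M region (*H2-M1*, *H2-M5*, *H2-M9*, *H2-M10.1*, *H2-M10.2*, *H2-M10.3*, *H2-M10.4*, *H2-M10.6* and *H2-M11*), 6 of the T region (*H2-T3*, *H2-T3-like*, *H2-T18*, *H2-Tw3* and 1 probe each of *H2-T24* and *H2-Bl*), *H2-Q1*, and 3 of class II (*H2-Ea*, *H2-Eb2* and *H2-DMb2*). For 18 of them no channel was well above background. The other 4 were *H2-Q1* with 2 channels and *H2-M1*, *H2-M11* and the second *H2-T24* probe with 1 channel each. *H2-Ea*, the alpha chain that pairs with the *H2-Eb1* product in the I-E molecule, had signals of 2.64 and 2.84 in knockout and control on array 1, and 2.76 and 2.40 on array 2, all not well above background. RefSeq lists this gene as a pseudogene in its C57BL/6J assembly. *H2-DMb2*, the second beta chain gene of H2-DM, was not well above background in any channel either.

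The machinery that serves both classes was measured beside them, in lists of genes chosen by their function. Of the class I loading and processing list, all 18 probes of 15 genes were compared, with a median log2 ratio of -0.05, and 0 passed the limit of 0.5 in either direction. *B2m*, the light chain of class I, had log2 ratios of 0.37 and -0.23 and a mean of 0.07 ± 0.43. *Tap1*, which moves peptides into the endoplasmic reticulum, had -1.50 and 1.67 and a mean of 0.09 ± 2.24, while its partner *Tap2* had a mean of -0.12 ± 0.27. Of the class II loading and processing list, 10 of 12 probes were compared, with a median of 0.00 and 0 past the limit. *Cd74*, the invariant chain, had a mean of -0.04 ± 0.092. *Ciita*, the master regulator of class II transcription, had log2 ratios of -1.38 and 2.19 and a mean of 0.40 ± 2.53, on signals between 7.66 and 37.7. *Ctss*, the protease that trims the invariant chain, was lower in the knockout on both arrays, by -0.35 and -0.17.

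Cells that carry class II were looked at by their marker genes. Of the dendritic cell list, 9 of 13 probes of 9 genes were compared, with a median log2 ratio of -0.10, a range from -0.35 to 0.00 and 0 past 0.5 with one direction. *Itgax*, which encodes CD11c, had a mean of -0.22 ± 0.25, *Zbtb46*, a dendritic cell transcription factor, had -0.10 ± 0.74, and *Xcr1* was not well above background. The B cell list had 6 of 10 probes compared, with a median of -0.04 and 0 past the limit. *Cd79b* had a mean of 0.12 ± 0.090, while *Cd79a* was well above background in 1 channel only. All 15 probes of the macrophage list were compared, with a median of 0.01. One of them was higher by at least 0.5: the *Itgam* probe A_55_P1977926, with signals of 28.2 and 15.1 in knockout and control on array 1, and 19.3 and 11.6 on array 2, and a mean log2 ratio of 0.82 ± 0.12. The 2 other probes of *Itgam*, which encodes CD11b, had means of 0.04 and 0.03. *Emr1* had means of -0.17 and -0.14. Over the 15 probes of the macrophage list, 9 means lay above 0 and 6 below. The part of these cells in the class II values was not tested.

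The T cell and NK cell list had 8 of 13 probes compared, with a median of 0.03 and 0 past the limit, and *Cd3g* came nearest, at -0.60 and -0.34. *Ncr1* and *Klrb1c*, markers of NK cells, were not compared. Of the genes induced by interferon-gamma, 15 of 16 probes were compared, with a median of 0.01, means from -0.31 to 0.33 and 0 past the limit. *Irf1* had a mean of 0.01 ± 0.26 and *Irf8* of -0.31 ± 0.10 with the knockout lower on both arrays. The kidney genes had a median of -0.08 over 9 probes, beside -0.09 for class II.

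**Figure D3:**
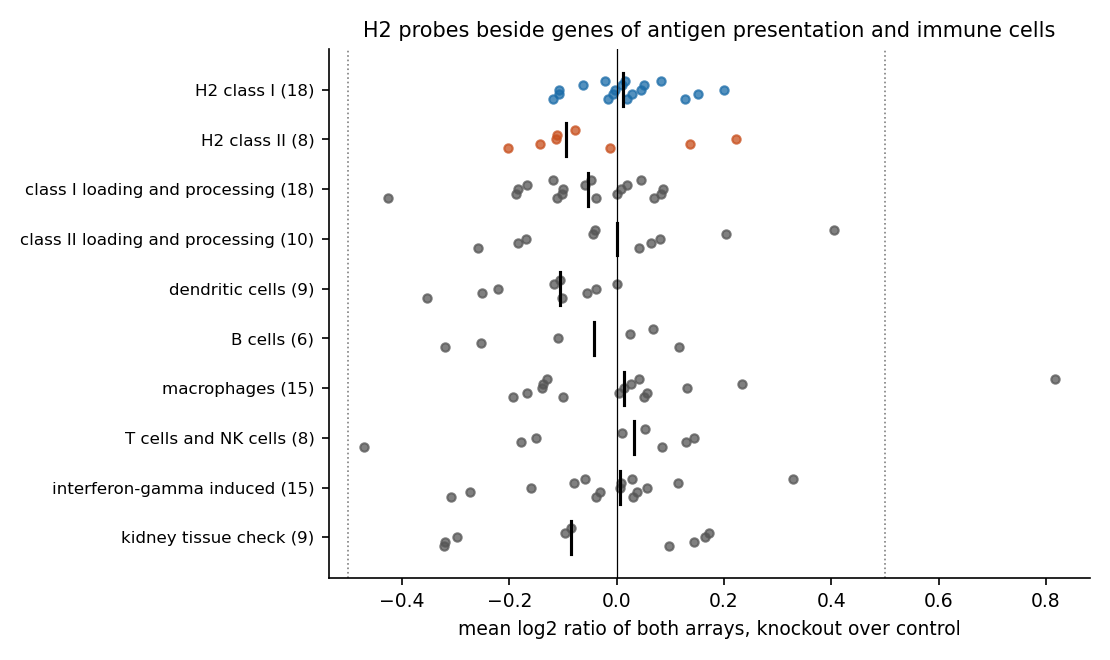
Mean log2 ratio of knockout over control over both arrays (horizontal axis) for each probe compared (dots), by group (rows, number of probes in parentheses). Black bars are medians and dotted lines mark 0.5 in either direction. The medians of all groups lie between -0.10 and 0.03, and 1 Itgam probe, at 0.82, lies past the limit.

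The files place 49 of the *H2* probes on chromosome 17 of mm9, over 3.54 Mb from chr17:34076578-34076721 (*H2-Ke2*) to chr17:37618042-37618101 (*H2-M2*), and *H2-T18* and *H2-T3-like* have no position. Most genes between them were close to equality. Of 239 probes of other genes in this stretch, 155 were compared, with a median log2 ratio of 0.00 and 138 (89.0%) within 0.25 of 0. By the rule of size, 1 of the 155 was at least 2-fold changed, beside 0.573% of all probes compared. It was *Hspa1a*, which encodes an inducible heat shock protein, at 0.57 and 1.53 with a mean of 1.05. A probe of *Abcf1* had a larger mean, 1.86, but opposite directions, at -0.12 and 3.84. At the limit of 0.5 with one direction, *Hspa1a*, *Psors1c2* (0.68) and *2310014H01Rik* (0.55) were higher and *Tnxb*, a matrix glycoprotein, was lower (-0.69). The shares over all probes were 1.32% higher and 1.28% lower. *Rnf39* (0.64) and *C920025E04Rik* (0.59) had means past 0.5 with opposite directions on the arrays. The contrast between the dyes had a median of -0.12 over these 155 probes.

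**Figure D4:**
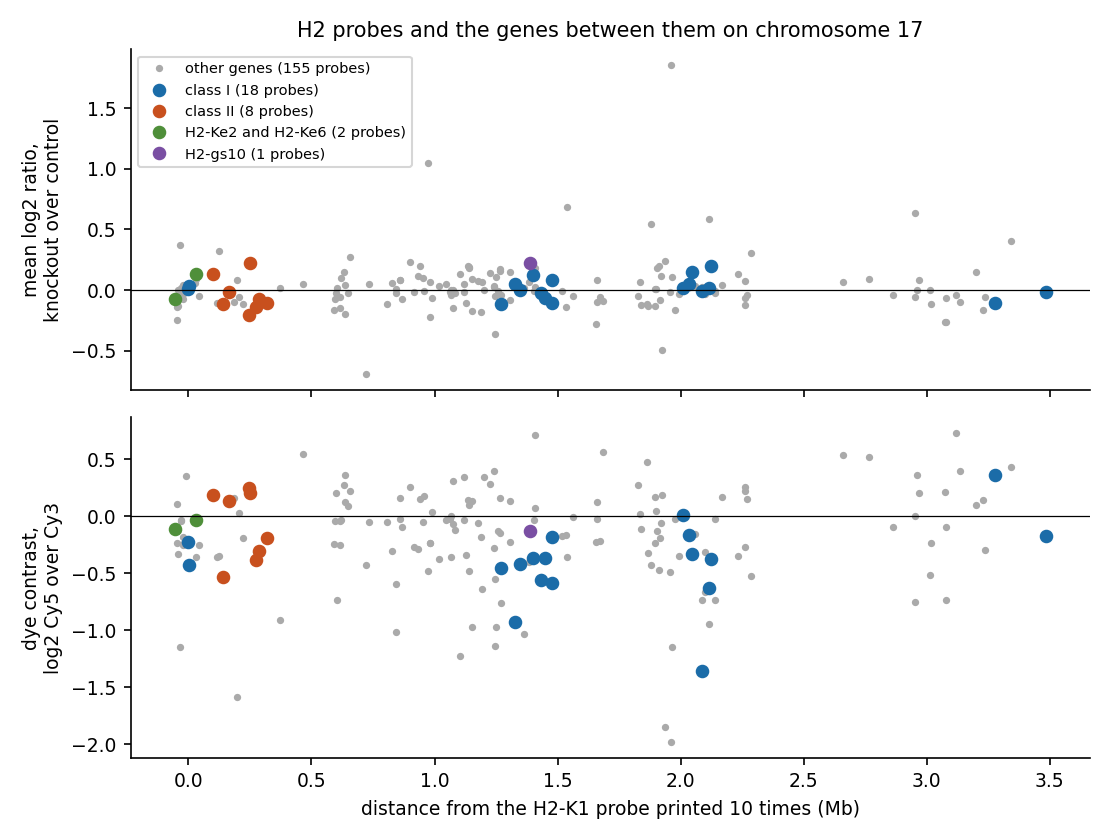
Mean log2 ratio of knockout over control (upper panel) and contrast between the dyes, log2 of Cy5 over Cy3 (lower panel), against the distance in Mb from the H2-K1 probe printed 10 times. Grey dots are probes of other genes in the region, and coloured points are H2 probes by class. The H2 means stay within 0.25 of 0 along the whole region. The lowest dye contrast of an H2 probe is that of H2-Bl, at -1.36, while probes of other genes reach as low as -1.98 (Abcf1).

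For 2 probes, the position in the files goes against the order of genes in RefSeq. The *H2-Q5* probe is placed at chr17:36246864-36247298, between the probes of *H2-Bl* and *H2-T10*, while RefSeq orders *H2-Q5* among the Q genes. The *H2-Q2* probe A_51_P425048 is placed beside *H2-Q1*, away from the other *H2-Q2* probe. Both are given in the text under the gene name of the files. The arrays also carry 14 probes that are described as MHC genes under other names, of which 10 were compared. Their median log2 ratio was -0.02, and 0 passed the limit of 0.5 with one direction. Of the 10, 8 were lower in the knockout on array 1 and higher on array 2, beside 8699 of all 24593 probes compared.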

How the data were processed

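Kidney RNA of both genotypes was labelled with Cy3 and Cy5 and hybridized to 2 dye-swapped Agilent arrays of 60-base probes. The scanner intensities deposited by the authors come from Agilent Feature Extraction, given as 10.7.3.1 in the file headers and 10.5.1.1 in the submitters' notes, with processed signals corrected for background, spatial trend and dye. The authors also deposited a log10 ratio per spot and a value table, whose log10 ratios lay within 0.00492 and 0.00483 of the scanner's on arrays 1 and 2, with array 2 turned in sign. Positions of probes were read from the files and are on mm9.

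Each ratio was turned to knockout over control by the dye labels and taken to log2. Control spots and spots flagged as outliers (141 and 175 of 43020 gene spots on arrays 1 and 2) were left out, and spots of a probe were averaged. The share of gene spots well above background was 68.0% for the knockout and 63.0% for the control on array 1, and 62.6% and 67.6% on array 2. Precision is limited by the number of arrays. Every *H2* probe is accounted for in the text, and classes were set by gene name. From the lists, members past 0.5 in log2 are named, or the first examples of a list. Other genes, such as *Ctss*, *Cd3g*, *Irf8* and *Emr1*, were named after their values were seen. Some members of the lists are not reported here. The members and lists were chosen with earlier results of these data known. Of 51 *H2* accessions, 43 matched RefSeq (assembly GRCm38.p6, used for names and order only), and 2 had another symbol there. No exon annotation on mm9 was used here.

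Alternatives were normexp (offset of 50) with loess, background-subtracted signals (floor of 1), no background correction, the deposited log10 ratios, other limits on dim probes, flagged spots kept, the brightest probe per gene, each array alone, the contrast between the dyes, and calls at least 2-fold on each array, by the methods' t-test (threshold 0.1, mean fold above 2) and by limma 3.58.1. Counting *H2-gs10* as class I was chosen after seeing the data. The scripts were first tested on simulated data. Python 3.11.15, numpy 2.4.6, pandas 2.3.3, scipy 1.17.1, matplotlib 3.10.9 and R 4.3.3 were used.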

Additional observations from a re-analysis of the deposited data

How the results depend on the processing

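No paired analysis was possible because 1 RNA sample per genotype was assumed, other than over the pair of arrays, which was taken to repeat the labelling and not the mice. The count of *H2* probes at least 2-fold changed was 0 with the other corrections, sources and filters tried, and with a limit of 2-fold on each array (59 of all 24593 probes). The methods' paired t-test and limma, run over the arrays as if they were replicates, also called 0 *H2* probes. They called 47 and 0 of all probes, and the t-test 0 after Benjamini-Hochberg adjustment, so that the adjusted counts say nothing about the *H2* genes. At an unadjusted p under 0.05, limma had 0 *H2* probes and 271 of all probes. With array 1 or array 2 alone, the count at 2-fold was 1 of 29 (*H2-Bl*), beside 5.03% and 4.37% of all probes. At the limit of 0.5 it was 8 and 6 of 29, beside 24.3% and 19.4%. The class II median was then between -0.13 and 0.047, and the number of genes with probes of one sign between 3 and 4. Taking Cy5 over Cy3 in place of knockout over control, 1 and 6 *H2* probes passed the limits of 2-fold and 0.5, beside 3.20% and 17.6% of all probes. Class II minus class I was then 0.34, and 4 genes had probes of one sign. This last number was 3 with normexp and loess and 0 with background-subtracted signals, against 1 as reported. With no limit on dim probes, it was 4 of 9. In that setting 1 of 51 *H2* probes passed 0.5, beside 5.52% of all 39416 probes. That probe, of *H2-M10.2* (0.58), was not well above background in any channel. Array 1 alone, array 2 alone and the dye contrast moved the class I median, reported as 0.01, to -0.34, 0.43 and -0.37. Class II minus class I was 0.22 on array 1 and -0.39 on array 2. With *H2-gs10* counted as class I, the class I median was 0.02. The class II minus class I difference kept its sign, between -0.12 and -0.04, with the other corrections, sources, filters and choices of probe. The 29 *H2* probes compared lay between -0.20 and 0.27 in these settings, with a median span of 0.02. The widest span, 0.21, was that of the *H2-Ob* probe A_66_P130916, from -0.20 to 0.0048. The SD of the arrays was widest, among these 29, for *H2-Bl*, at 1.93.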
